A study of Mus musculus with 14 samples.

Results

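The Tex (testis expressed) genes of the mouse were followed across germline stem cells, pluripotent lines derived from them and embryonic stem cells. Members were all probes whose gene symbol in the platform annotation is Tex followed by a digit. They came to 31 probes of 25 genes, among 25697 probes on the array. The symbol records where a transcript was found, not a shared sequence or function, so the genes are a naming series and not a protein family. Each of 14 RNA samples was measured on an Illumina BeadChip (Mouse-8 v2), which reads transcripts with bead-bound probes. Germline stem cells (GSC), which are grown from testis and labelled unipotent, came as 3 lines labelled C57BL6 with an Oct4-GFP transgene (OG2). A further 3 GSC lines were labelled as a C57BL6 and 129sv cross with Oct4-GFP and LacZ (OG2-ROSA). Germline-derived pluripotent stem cells (gPS), described as clonal in the series text, came as 3 lines of each of these backgrounds. Embryonic stem cells (ESC) labelled C57BL6, with no transgene named, gave 2 arrays that may be technical replicates of 1 culture. All samples were cultured cells, so no group stands for testis tissue with its meiotic and postmeiotic stages. Strain, transgene and any batch between OG2 and OG2-ROSA cannot be told apart.

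Several Tex genes act in the male germline. Tex14 is needed for the intercellular bridges that join sister germ cells after incomplete cytokinesis. Tex11, Tex12 and Tex15 act in meiosis: Tex11 promotes crossover formation, Tex12 builds the central element of the synaptonemal complex, and Tex15 is required for double-strand break repair and for silencing of transposons. Tex101 is a surface glycoprotein of germ cells that male fertility requires, and Tex19.1 limits retrotransposons and binds the ubiquitin ligase Ubr2. Others are housekeeping proteins that bear the name by history. Tex10 belongs to a nuclear complex of ribosome biogenesis and also binds Sox2 in embryonic stem cells, Tex264 is a receptor for selective autophagy of the endoplasmic reticulum, Tex261 acts in export from that organelle, and Tex2 is a lipid transfer protein of its membrane. In pluripotent cells, many germline promoters are repressed by a Polycomb complex that holds E2F6 and the pair Mga and Max, and by DNA methylation.

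Promoters are shown for the members that mark the different patterns described below: Tex101 and Tex13b, which were detected in GSC alone, Tex14, which fell but remained detected, and Tex10, whose level did not differ detectably. Each window runs from 250 bases before a start listed by RefSeq to 50 after it, on the strand of the gene, in build GRCm38.p6. The listed start is the first base of the gene for Tex101 and Tex13b, and lies 1 base inside the gene for Tex10 and 52 bases inside it for Tex14. Of the 25 member genes, 19 had such a sequence, and Tex11 was not among them. Capitals mark matches, on either strand, to TCCCGC (reverse complement GCGGGA, the core of E2F sites) or to the E-box CACGTG, which Max complexes bind. The windows are chr7:24672001-24672300 (minus strand) for Tex101, chrX:140813384-140813683 (minus strand) for Tex13b, chr11:87404815-87405114 (plus strand) for Tex14 and chr4:48473414-48473713 (minus strand) for Tex10.
Tex101: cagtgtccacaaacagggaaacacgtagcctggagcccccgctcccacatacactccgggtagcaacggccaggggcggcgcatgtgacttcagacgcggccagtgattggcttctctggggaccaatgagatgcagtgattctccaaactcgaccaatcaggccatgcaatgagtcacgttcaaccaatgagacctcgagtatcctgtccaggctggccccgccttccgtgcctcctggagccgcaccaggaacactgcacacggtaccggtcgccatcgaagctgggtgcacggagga
Tex13b: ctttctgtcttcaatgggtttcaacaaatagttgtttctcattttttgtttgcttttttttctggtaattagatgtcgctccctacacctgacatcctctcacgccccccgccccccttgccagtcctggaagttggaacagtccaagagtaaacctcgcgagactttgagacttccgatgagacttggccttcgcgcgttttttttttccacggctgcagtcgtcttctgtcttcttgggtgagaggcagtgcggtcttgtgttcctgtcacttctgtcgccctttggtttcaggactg
Tex14: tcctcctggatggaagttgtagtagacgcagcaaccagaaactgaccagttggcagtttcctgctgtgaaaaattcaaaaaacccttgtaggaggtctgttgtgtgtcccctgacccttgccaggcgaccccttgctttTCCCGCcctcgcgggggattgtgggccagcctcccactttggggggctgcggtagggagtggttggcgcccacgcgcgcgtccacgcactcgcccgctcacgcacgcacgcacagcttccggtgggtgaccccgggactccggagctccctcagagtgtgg
Tex10: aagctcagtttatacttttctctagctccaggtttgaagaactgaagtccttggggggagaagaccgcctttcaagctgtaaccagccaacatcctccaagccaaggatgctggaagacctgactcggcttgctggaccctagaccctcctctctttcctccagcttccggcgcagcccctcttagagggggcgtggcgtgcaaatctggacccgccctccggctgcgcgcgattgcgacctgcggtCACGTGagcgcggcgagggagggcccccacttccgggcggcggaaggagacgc

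The Tex14 window held TCCCGC at position 140 from its first base, and the Tex10 window held CACGTG at position 248. The windows of Tex101 and Tex13b held neither. Over all 32851 promoters in the table, 20.0% held TCCCGC and 7.15% held CACGTG. Of the 23 member promoters, some of which overlap within 1 gene, 8 held the first and 3 the second. CG dinucleotides, the sites of DNA methylation, numbered 19 in Tex101, 13 in Tex13b, 20 in Tex14 and 21 in Tex10, against a median of 7.0 over all promoters (quartiles 3.0 and 20.0). Tex16, also restricted to GSC, had a window with 0 CG dinucleotides. That window begins at base 112093270 of the X chromosome, far inside a gene whose first base is 111896766. Its CG count therefore does not describe the first base of Tex16 and is not set against the others. A match is a description of letters and not evidence of binding.

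A probe was called detected on an array at a detection p-value under 0.01, and was tested when it was detected on at least 2 arrays. Of the 31 Tex probes, 17 passed, representing 12 genes. The other 14 probes, of 13 genes, were detected on 0 of 14 arrays: Tex12, Tex13a, Tex15, Tex21, Tex22, Tex24, Tex35, Tex36, Tex37, Tex43, Tex46, Tex47 (both probes) and Tex48. Their normalized log2 intensities lay between 4.38 and 5.89. The lowest signals called detected lay between 5.54 and 6.22, depending on the array. Among these 13 are the meiotic genes Tex12 and Tex15, so neither was measurable in GSC, with values of 4.43 to 4.63 and 4.40 to 5.15 over all arrays. An undetected probe places only an upper bound on its transcript.

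**Figure D1:**
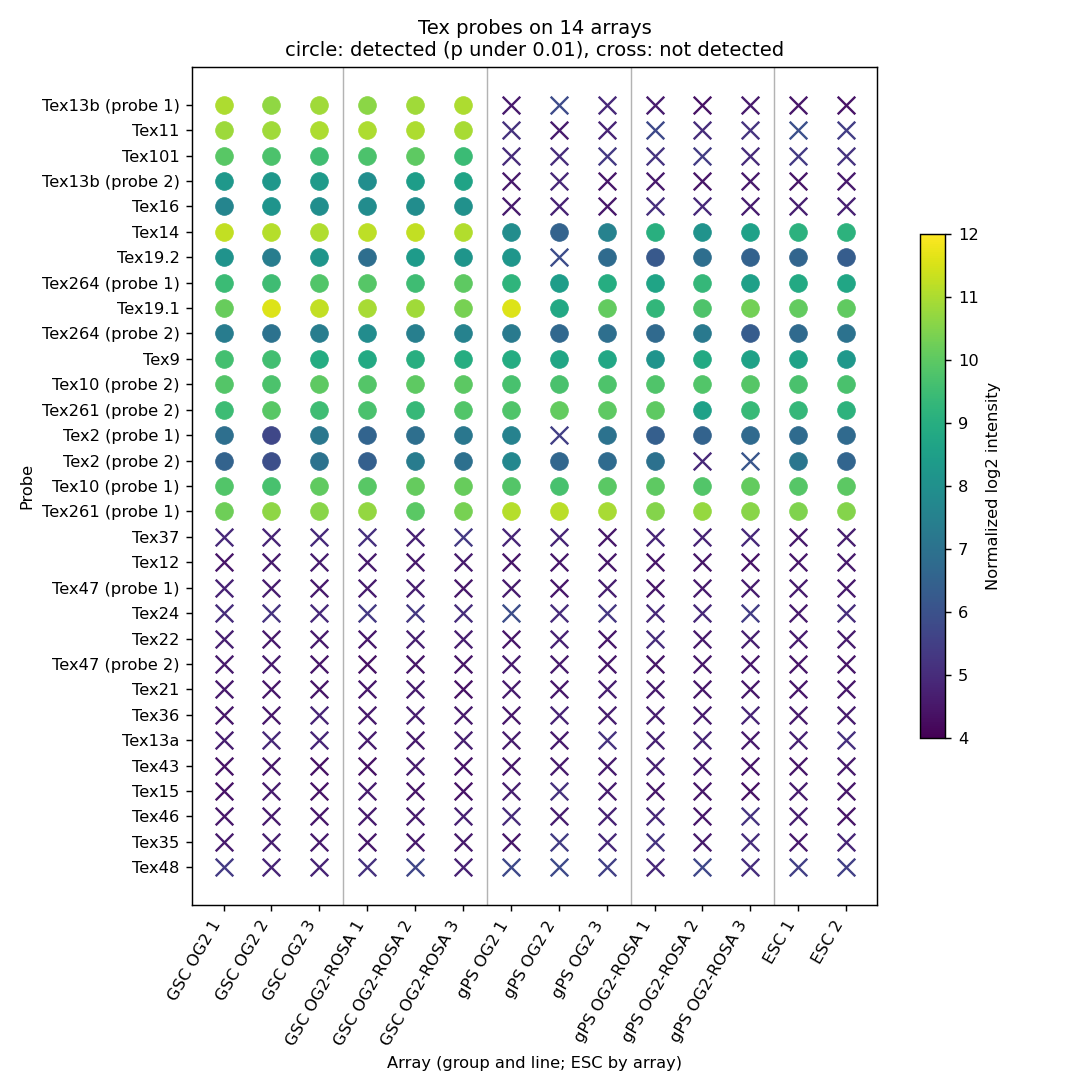
Normalized log2 intensity (colour) of all 31 Tex probes (rows) on the 14 arrays (columns, by group and line). Circles are detected and crosses undetected values; the upper 5 rows are detected on the 6 GSC arrays alone, and the lower 14 rows on no array.

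Array brightness and cell identity set the frame for these values. The GSC arrays had a mean intensity of 613.7 to 639.5, the gPS arrays of 308 to 579.9 and the ESC arrays of 584.4 and 622 (gPS against GSC, 6 arrays each, exact two-sided permutation p = 0.00216, the smallest that 924 splits allow). The 2 dimmest arrays were gPS OG2-ROSA lines 1 and 2. GSC arrays detected 10950 to 11610 probes of the whole array and gPS arrays 9638 to 10295 (exact permutation p = 0.00216), and the part of brightness in the gPS detection calls was not tested. On all 6 GSC arrays the same number of Tex probes, 17, was detected, against 10 to 12 in gPS and 12 on both ESC arrays. Of 8 germline stem cell markers, 7 were detected on every GSC array, the exception being Gfra1, and 7 of 7 pluripotency markers were detected on every gPS and ESC array. In GSC, 4 of the 7 pluripotency markers were also detected on every array, and 2 (Nanog and L1td1) on none. Of the 7 spermatid markers, Izumo1 and Spaca1 were detected on every GSC array, Odf1 on 1 of them, and Prm1, Tnp1, Tnp2 and Acrv1 on none. Fibroblast markers had a list mean of 6.42 to 9.41 on the log2 scale in GSC, 5.81 to 7.65 in gPS and 6.5 to 6.56 in ESC. Of the 10 markers, 6 were detected on every GSC array, 3 on every gPS array and 4 on every ESC array. Of 7 Sertoli markers, 2 (Wt1 and Inhbb) were detected on every GSC array and 2 on none. The Sertoli list mean was 5.63 to 6.24 in GSC, 5.91 to 6.75 in gPS and 6.28 to 6.33 in ESC. Its members went in opposite directions. Wt1 read 7.66 to 10.3 in GSC and 5.02 to 7 in gPS. Rhox5 read 5.06 to 5.81 in GSC, 5.83 to 12.92 in gPS and 10.85 in ESC. All 5 Leydig markers were undetected in GSC. The part of these markers in the Tex values was not tested.

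The first comparison asked how Tex transcripts differed between the gPS and GSC lines, averaged over both backgrounds. Tex11, Tex13b, Tex101 and Tex16 were detected in every GSC line and on no gPS or ESC array. Tex14 fell steeply but stayed detected in every gPS line. Tex19.2, Tex264 and Tex9 fell by smaller amounts, and Tex261 was the gene that rose, by 1 of its 2 probes. Tex10, Tex2 and Tex19.1 did not pass the test. At the brighter probe of each gene, 8 of the 12 tested genes were lower, 1 was higher and 3 were not called (limma, adjusted p under 0.05 over all 13034 tested probes). Of the 8, Tex11, Tex13b, Tex101 and Tex16 had passed the detection filter through the GSC arrays alone and had to be lower. No share over all genes was computed, and shares by probe follow.

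By probe, 11 of 17 were called, 10 lower and 1 higher. Over all tested probes 63.9% were called, 33.5% lower and 30.4% higher, so the overall share called was close to the background. Of the 10 lower probes, 5 had passed the detection filter through the GSC arrays alone and had to differ. Of the 12 probes that were also detected elsewhere, 5 were lower, 1 higher and 6 not called. The median log2 change of the 17 probes was -0.85, against -0.04 over all tested probes. Over the 12 probes also detected elsewhere it was -0.32. No called share or median was computed over all probes detected in that way, here or for the same split in the comparisons below. In bulk samples, fewer cells of a type and less RNA per cell cannot be told apart.

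**Figure D2:**
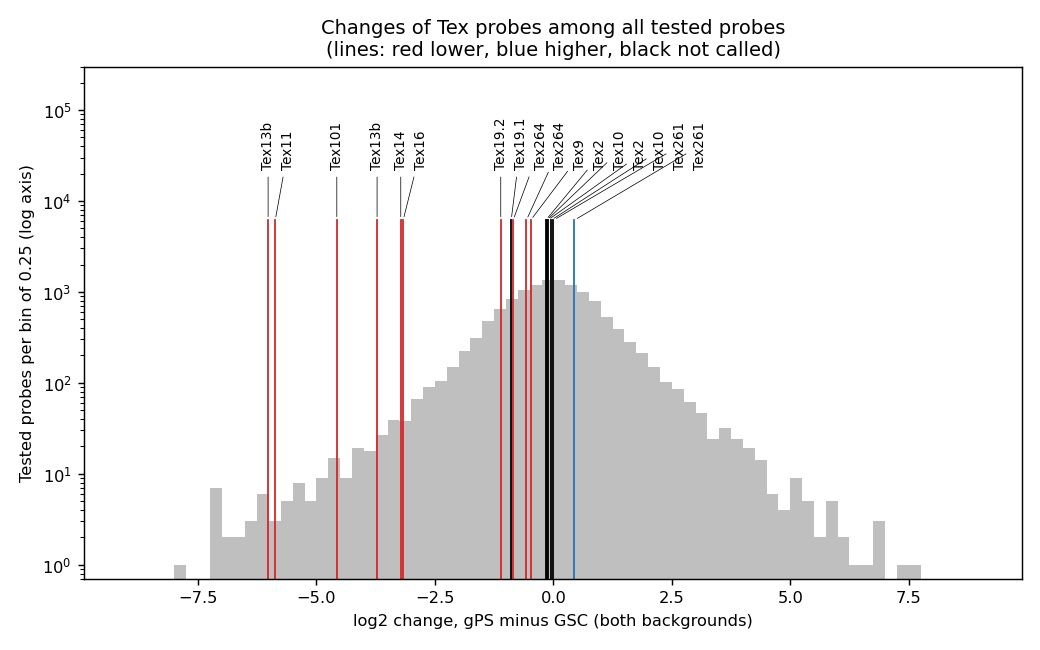
Histogram of the log2 change from GSC to gPS for all 13034 tested probes (bars, log vertical axis) with the 17 Tex probes as lines labelled by gene, one line per probe. The Tex13b and Tex11 lines stand at -6.02 and -5.87 in the lower tail, whereas the 2 probes each of Tex10 and Tex2 lie between -0.16 and -0.05.

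Tex11, the X-linked crossover gene, was at 10.83, 10.86 and 11 (normalized log2 intensity) in GSC OG2 lines 1 to 3 and at 11.03, 11.01 and 10.96 in GSC OG2-ROSA lines 1 to 3. On the gPS arrays its probe read 4.59 to 5.77 and on the ESC arrays 5.95 and 5.45, all undetected. The 6 GSC lines were nearly level, and all lay above every gPS and ESC array. Tex11 was at least 29-fold lower in gPS (fitted log2 change -5.87, SE 0.16, limma adjusted p = 1.07e-11). Such bounds set the GSC mean against the lowest signal called detected on each array of the dim group.

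Tex13b, an X-linked gene, had 2 probes that gave the same order. At the brighter probe the GSC lines read 11.02, 10.67 and 10.85 in OG2 and 10.60, 10.86 and 11.01 in OG2-ROSA. The gPS lines read 4.40 to 5.83, highest in OG2 line 2, and the ESC arrays 4.47 and 4.42, with no detection in either. The decrease was at least 26.8-fold by this probe (fitted log2 change -6.02, SE 0.19, limma adjusted p = 3.09e-11). The second probe, at 7.93 to 8.64 in GSC, allowed a bound of only 4.64-fold (fitted change -3.72, adjusted p = 1.67e-10). Both probes put every GSC line above every gPS and ESC array.

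Tex101, the surface glycoprotein, read 9.91, 9.73 and 9.54 in GSC OG2 and 9.72, 10.03 and 9.44 in GSC OG2-ROSA. It was undetected in gPS (4.97 to 5.42) and in ESC (5.38 and 5.21). The bound was at least 12.5-fold lower in gPS (fitted log2 change -4.57, SE 0.15, limma adjusted p = 3.86e-11). Tex16, also X-linked, read 7.64, 8.15 and 7.92 in GSC OG2 and 7.86, 7.90 and 8.02 in GSC OG2-ROSA, against 4.52 to 5.07 in gPS and 4.71 and 4.72 in ESC. Its bound was at least 3.55-fold (fitted change -3.17, SE 0.13, adjusted p = 3.62e-10). In all 4 of these genes the GSC arrays and the other arrays did not overlap, which for probes detected on GSC arrays alone was bound to be so.

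Tex11, Tex13b and Tex16 lie on the X chromosome in the RefSeq table, and Tex101 lies on chromosome 7. The X chromosome held 4 of the 25 member genes, the fourth being the undetected Tex13a. Of all tested probes with a known chromosome 3.35% were X-linked, and of the 524 probes with a known chromosome that were detected on all 6 GSC arrays and on no other array, 7.06% were. In total 562 of the 13034 tested probes, or 4.31%, had this pattern of detection, so it was not particular to Tex genes. With 4 genes, no statement on chromosomes beyond the count is made.

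Tex14, the intercellular bridge gene, stood apart from these because it remained detected on all 14 arrays. It read 11.28, 11.10 and 11.04 in GSC OG2 and 11.20, 11.25 and 11.09 in GSC OG2-ROSA. The gPS OG2 lines read 7.90, 6.52 and 7.5, the gPS OG2-ROSA lines 9.05, 8.10 and 8.55, and the ESC arrays 9.12 and 9.14. The GSC lines were nearly level, and the highest gPS line lay 1.99 below the lowest GSC line. Tex14 was 9.33-fold lower in gPS (log2 change -3.22, SE 0.22, limma adjusted p = 3.99e-08), and its call held under all 26 alternatives of the processing. Between ESC and GSC OG2 the difference was smaller (log2 2.01 higher in GSC OG2, SE 0.35, adjusted p = 0.000429).

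The gPS lines of OG2 and OG2-ROSA were also compared for Tex14. Every OG2 line was below every OG2-ROSA line, but the difference of 1.26 (SE 0.31) did not pass (limma adjusted p = 0.14). Set against ESC, gPS OG2 was lower by a log2 change of -1.82 (SE 0.35, adjusted p = 0.0274). That call was lost under 8 of 26 alternatives, among them without either ESC array (adjusted p up to 0.366), without gPS OG2 line 3, without GSC OG2-ROSA line 3, and with the authors' own values. For gPS OG2-ROSA against ESC the change was -0.56 (95% interval -1.31 to 0.18, adjusted p = 0.594).

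Germline marker levels on the same arrays were low but not uniform. The mean log2 level of the 8 germline markers was 10.54 to 10.78 in GSC. In gPS OG2 lines 1 to 3 it was 6.16, 5.12 and 5.59, with 5, 0 and 2 of the 8 markers detected. In gPS OG2-ROSA lines 1 to 3 it was 5.89, 5.04 and 5.06, with 3, 0 and 1 detected, and in ESC it was 5.27 and 5.5, where Ddx4 alone was detected. Tex14 was thus detected on the 2 gPS arrays on which no germline marker was, at 6.52 (OG2 line 2) and 8.10 (OG2-ROSA line 2). Within each background, Tex14 and the marker mean ranked the gPS lines alike, with line 1 highest and line 2 lowest. The ESC arrays, with marker means inside the gPS range, read higher in Tex14 than every gPS line. The part of those markers in the Tex14 values was not tested.

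Tex19.1 and Tex19.2 are closely related genes on opposite strands of chromosome 11, with starts 27466 bases apart in GRCm38.p6. Because the genes are similar, their probes may share signal. Tex19.1 was detected on all 14 arrays, at 10.15, 11.58 and 11.27 in GSC OG2 and 10.96, 10.87 and 10.35 in GSC OG2-ROSA. In gPS it read 11.59, 8.81 and 10.09 in OG2 lines 1 to 3 and 9.28, 9.76 and 10.30 in OG2-ROSA lines 1 to 3, and in ESC 10.09 and 10.05. The groups overlapped, since gPS OG2 line 1 lay at the top of the GSC range while line 2 was the lowest of all arrays. The log2 change of -0.89 (SE 0.39, 95% interval -1.74 to -0.05) did not pass (limma adjusted p = 0.0614). It passed without gPS OG2 line 1, GSC OG2 line 1 or gPS OG2-ROSA line 3.

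Tex19.2 followed the same order within the gPS OG2 lines. It read 8.11, 7.36 and 8.16 in GSC OG2, 6.86, 8.35 and 8.18 in GSC OG2-ROSA, and 8.19, 5.87 (undetected) and 6.76 in gPS OG2. The gPS OG2-ROSA lines read 6.21, 6.85 and 6.49 and the ESC arrays 6.58 and 6.33. In gPS OG2, line 1, which had the highest germline marker level, was the highest of the gPS lines, and line 2, with no germline marker detected, was the lowest. In gPS OG2-ROSA the order was the other way, with line 1, highest in germline markers, lowest in both Tex19.1 and Tex19.2. The part of those markers in these values was not tested. Tex19.2 was lower in gPS by a log2 change of -1.11 (SE 0.36, limma adjusted p = 0.0149), with overlapping groups, and the call was lost when both dim arrays were left out (adjusted p = 0.0533). In OG2 alone the change was -0.94 (adjusted p = 0.14).

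Tex264, the autophagy receptor, showed a small decrease that both of its probes shared. At the brighter probe it read 9.44, 9.50 and 9.83 in GSC OG2 and 9.90, 9.50 and 10.02 in GSC OG2-ROSA, against 9.20, 8.41 and 8.95 in gPS OG2 and 8.67, 9.34 and 8.52 in gPS OG2-ROSA. The groups did not overlap, though by only 0.11. The log2 change was -0.85 (SE 0.18, limma adjusted p = 0.00119), and -0.57 at the second probe (SE 0.18, adjusted p = 0.0122), where the groups overlapped. ESC arrays read 8.83 and 8.72 at the brighter probe, and no difference from gPS was called.

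Tex9 also fell slightly, by a log2 change of -0.48 (SE 0.16, limma adjusted p = 0.0186). It read 9.61, 9.57 and 8.93 in GSC OG2 and 8.82, 9 and 8.95 in GSC OG2-ROSA. The gPS lines read 8.93, 8.74 and 8.76 in OG2 and 8.13, 8.83 and 8.60 in OG2-ROSA, overlapping the lower GSC lines, and the ESC arrays 8.62 and 8.27. With medians equalised over the tested probes the change was -0.35 and did not pass (limma adjusted p = 0.0804). Without that scaling, the change within OG2 was -0.56 and within OG2-ROSA -0.4, neither called (limma adjusted p = 0.0575 and 0.159).

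**Figure D3:**
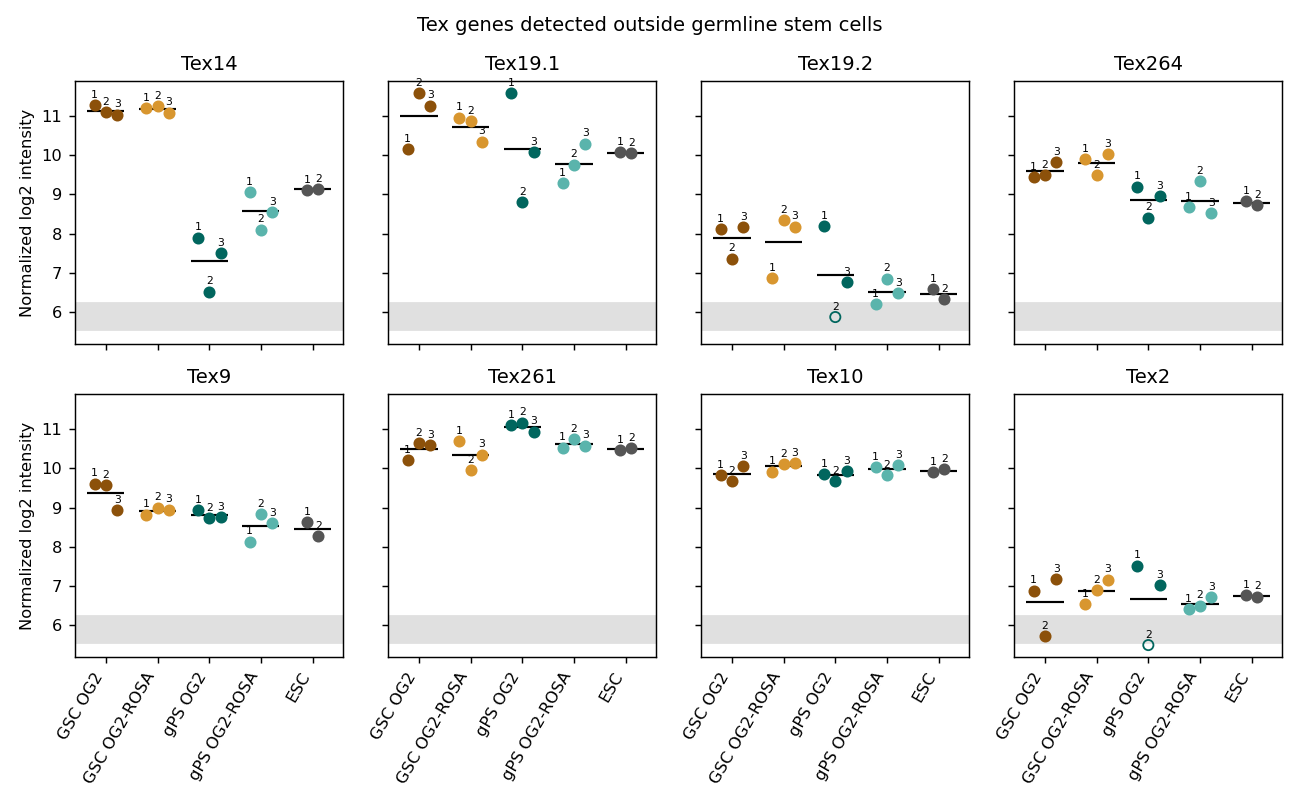
Normalized log2 intensity of the 8 Tex genes detected outside GSC, at the brighter probe, by group; points are arrays numbered by line, open points are undetected, bars are group means, and the grey band is the range of lowest detected signals. Tex14 separates GSC (11.04 to 11.28) from all other arrays, whereas Tex10 lies between 9.67 and 10.14 everywhere.

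Tex261 rose by 1 probe and not by the other. The brighter probe read 10.22, 10.64 and 10.59 in GSC OG2, 10.70, 9.95 and 10.35 in GSC OG2-ROSA, 11.10, 11.17 and 10.94 in gPS OG2 and 10.53, 10.74 and 10.58 in gPS OG2-ROSA. Its log2 change was 0.44 (SE 0.15, limma adjusted p = 0.0182), with overlapping groups. The call was lost without GSC OG2 line 1 and without both dim arrays (adjusted p up to 0.06). The second probe changed by 0.00 (SE 0.21, 95% interval -0.46 to 0.46), and was lowest on the dimmest array, gPS OG2-ROSA line 2, at 8.54.

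Tex10, the Sox2-binding member, was the steadiest. Its brighter probe read 9.68 to 10.14 in GSC (median 9.98), 9.67 to 10.09 in gPS (median 9.89) and 9.90 and 9.98 in ESC. The log2 change was -0.05 (SE 0.12, 95% interval -0.31 to 0.21) and -0.14 at the second probe (95% interval -0.38 to 0.09), neither called by limma (adjusted p = 0.732 and 0.271). Medians equalised over the tested probes turned both to small uncalled increases of 0.15 and 0.06. Tex2 lay near the detection level, at 5.71 to 7.17 in GSC and 5.49 to 7.52 in gPS at the brighter probe, which was undetected in gPS OG2 line 2. The dimmer probe was undetected in gPS OG2-ROSA lines 2 and 3. Their log2 changes were -0.12 (95% interval -0.81 to 0.57) and -0.16 (95% interval -0.87 to 0.55). Differences within these intervals were not detectable for Tex2.

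The comparison was then made within each background. In OG2, 8 of 17 Tex probes were called, 7 lower and 1 higher, against 49.4% of all tested probes (26.2% lower and 23.2% higher). The 5 probes detected on GSC arrays alone made up 5 of the 7, and of the other 12, 2 were lower, 1 higher and 9 not called. In OG2-ROSA, 9 were called, all lower, against 50.1% of all tested probes (26.2% lower and 23.9% higher). The same 5 were among them, and of the other 12, 4 were lower and 8 not called. As bounds, Tex11 was at least 28.8-fold lower in OG2 and 29.2-fold in OG2-ROSA, Tex101 at least 12.8-fold and 12.2-fold, and the brighter Tex13b probe at least 27.8-fold and 25.9-fold. For Tex16 the bounds were 3.61-fold and 3.48-fold. With the gPS signal undetected in both backgrounds, a difference in the size of these changes could not be measured.

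Tex14 changed by -3.83 (SE 0.31) in OG2 and by -2.61 (SE 0.31) in OG2-ROSA. The difference of 1.22 (SE 0.44) had an unadjusted p of 0.0153 and an adjusted p of 0.871 in limma, with 6 arrays per background. No Tex probe was called for a difference between the backgrounds, where 0.00767% of all tested probes were called, and 2 of 17 had an unadjusted p under 0.05. The other was the dimmer probe of Tex2, at -1.45 (limma adjusted p = 0.94). The share of all tested probes at that unadjusted level was not computed.

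**Figure D4:**
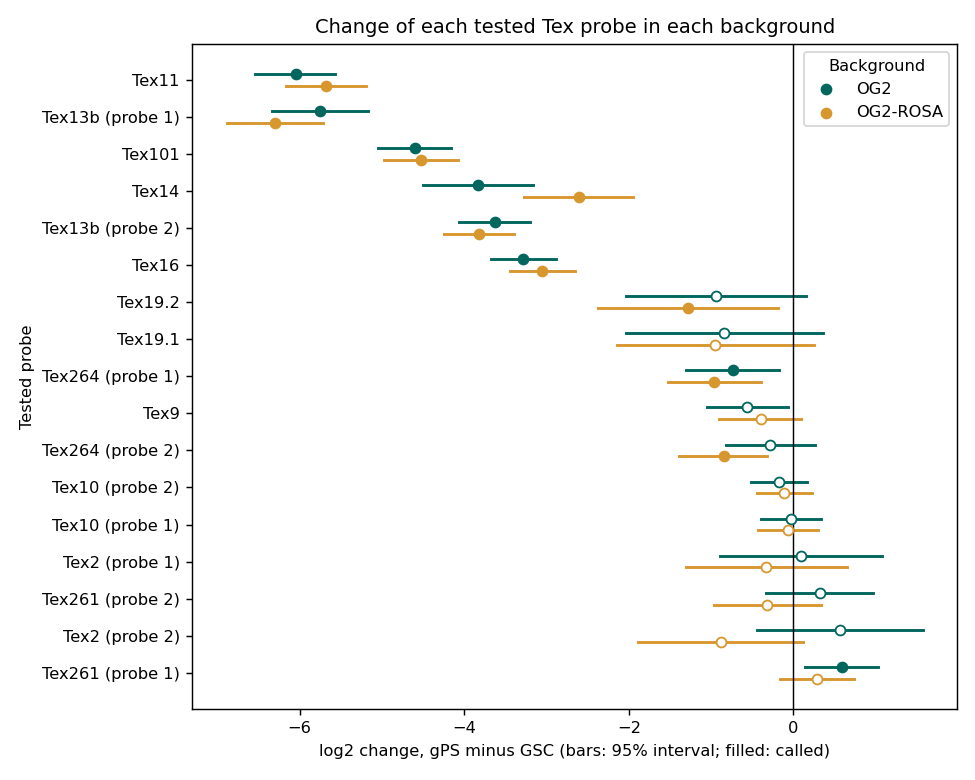
Log2 change from GSC to gPS of the 17 tested Tex probes in OG2 and in OG2-ROSA, with 95% intervals; filled points were called. The 6 lowest probes, those of Tex11, Tex13b, Tex101, Tex14 and Tex16, were called in both backgrounds, with fitted changes from -6.30 to -2.61; all of them but Tex14 were undetected in gPS.

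Embryonic stem cells served as the reference for pluripotent cells. In gPS OG2 against ESC, 1 of 17 Tex probes was called, Tex14, against 0.836% of all tested probes (0.514% lower and 0.322% higher), and 4 had an unadjusted p under 0.05. Among those 4 were Tex11 and the brighter Tex13b probe, each undetected in both groups. The share of all tested probes under that unadjusted level was not computed. With array weights 5 were called, while calls over all tested probes rose to 12.5%, and Tex11 and a Tex13b probe among the 5 were undetected in both groups. In gPS OG2-ROSA against ESC, 0 were called in limma and 0 had an unadjusted p under 0.05, against 0.261% of all tested probes called. The 4 GSC-restricted genes were undetected on both sides, so no fold can be given between gPS and ESC. Tex19.1 differed from ESC by 0.10 (95% interval -1.24 to 1.44) in gPS OG2 and by -0.29 (95% interval -1.63 to 1.05) in gPS OG2-ROSA, intervals too wide to show that the levels were alike.

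GSC OG2 against ESC, which share the strain label, gave 8 probes called higher and 0 lower, against 45.7% of all tested probes (24.0% higher and 21.8% lower). Of the 8, 5 were the probes detected on GSC arrays alone, and of the other 12 probes 3 were higher and 9 not called. This comparison shares the GSC OG2 arrays with the one within OG2. Tex11 was at least 27.4-fold, Tex13b at least 26.5-fold, Tex101 at least 12.2-fold and Tex16 at least 3.45-fold higher in GSC OG2. Tex9 differed by a log2 of 0.92 (SE 0.26, limma adjusted p = 0.01) and Tex264 by 0.82 (SE 0.29, adjusted p = 0.0346). The Tex264 call was lost under 9 of 26 alternatives and that of Tex9 under 2, including the one that counts both ESC arrays as 1 sample (adjusted p up to 0.156 and 0.109). Tex19.2 stood 1.42 higher in GSC OG2 without passing (adjusted p = 0.0552).

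Background had no called effect on Tex probes within a cell type. GSC OG2-ROSA against GSC OG2 gave 0 calls in limma and 0 probes at an unadjusted p under 0.05, with log2 differences from -0.44 (Tex9) to 0.42 (the dimmer Tex2 probe), against 0.00767% of all tested probes called. In gPS OG2-ROSA against gPS OG2, 0 were called and 4 had an unadjusted p under 0.05, against 0.222% of all tested probes called (0.046% lower). Among those 4 was the brighter Tex13b probe, undetected in both groups. The share of all tested probes at that unadjusted level was not computed. Differences of the tested Tex probes between the gPS groups ran from -1.03 (the dimmer Tex2 probe) to 1.26 (Tex14).

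Partners of the Tex proteins, and genes of the same processes, were counted from lists, to be read against the 63.9% of all tested probes called (33.5% lower and 30.4% higher). Passing the detection filter through GSC arrays alone selects for genes that are lower in gPS, so such genes are counted separately. Of the intercellular bridge genes that accompany Tex14, 3 were tested: Rbm44, a bridge component of germ cells, read 9.77 to 10.33 in GSC, was undetected in gPS and was at least 14.9-fold lower there (limma adjusted p = 5.58e-11). Kif23, the mitotic kinesin that also serves cytokinesis, rose by 0.50 (adjusted p = 0.011), and Cep55 changed by -0.02 without passing. The median change of the 3 was -0.02, against -0.04 for all tested probes.

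Of 10 listed genes of the synaptonemal complex and chromosome axis on the array, the structures to which Tex12 belongs, 7 passed the detection filter. Among those 7, 6 fell and 1 did not pass (median log2 change -2.35, or -2.15 with undetected genes at their bound). Of the 6, 1 (Sycp1) was detected on GSC arrays alone. The cohesin subunits Smc1b and Stag3 had fitted changes of -6.18 and -4.74, but Smc1b was detected on 1 of 6 gPS arrays, so that its fitted change was mostly against undetected signal. Sycp1, of the transverse filaments, was undetected in gPS and at least 2.43-fold lower. Of 8 listed genes of meiotic recombination on the array, 5 were tested, of which 3 fell and 1 rose (median -0.72, or -0.68 with Spo11 alone at its bound). The 3 that fell were detected on GSC arrays alone, and the other 2 were Mnd1, which rose by 0.64, and Psmc3ip, at 0.10 and not called, both named after their values were seen. Spo11, which makes the breaks, had a bound of at least 1.61-fold lower. The crossover genes Msh4 and Msh5 had fitted changes of -1.13 and -0.72, but no bound could be given for them. Their GSC means of 5.95 and 5.37 lay below the lowest signals called detected on the gPS arrays (5.96 to 6.22). Spo11, Msh4 and Msh5 were detected on 0 gPS arrays and on 6, 4 and 2 GSC arrays. Of 9 listed genes of transposon silencing on the array, the process that Tex15 and Tex19.1 share, 8 were tested. Among those 8, 7 fell and 1 rose (median -4.69, or -4.32 at the bound). Of the 7, 3 were detected on GSC arrays alone. The one that rose was Dnmt3l, a cofactor of DNA methylation, by 6.99. Asz1, a germ granule protein, had a fitted change of -6.22, with 1 of 6 gPS arrays detected, and Tdrkh was at least 35.1-fold lower.

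Members of the Tex10 complex went both ways. Of 5 tested members of its complex 3 rose, 1 fell and 1 did not pass (median 0.60), with Las1l at 1.32 (SE 0.19, limma adjusted p = 4.82e-05), Wdr18 at 1.28 and Nol9 at -1.28. Of the ubiquitin ligases with the UBR domain, Ubr1 was the tested one and rose by 2.90 (SE 0.18, adjusted p = 1.95e-08), detected in 2 of 6 GSC and 6 of 6 gPS arrays, and Ubr2 itself was not analysed here. Of 5 receptors of endoplasmic reticulum autophagy on the array besides Tex264, 4 were tested, of which 2 fell and 2 did not pass (median -0.44). Retreg1 changed by -1.67, and Ccpg1 by -0.27 without being called. Calcoco1, detected on 4 of 6 GSC arrays and on no other, had a fitted change of -0.60 but no bound. Its GSC mean of 5.8 lay below the lowest signals called detected on the gPS arrays (5.96 to 6.22). Of 6 sperm surface genes and their chaperones on the array, 2 were tested and both fell: Clgn, a chaperone of the endoplasmic reticulum, changed by -2.85, and Calr3 was detected on GSC arrays alone and at least 1.06-fold lower (median -1.98, or -1.47 at the bound). In gPS against ESC, 0 genes of these lists were called except Stag3, which was lower in gPS OG2 (log2 change -2, adjusted p = 0.0262).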

How the data were processed

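The authors deposited, for 14 mouse arrays, each probe's intensity on a linear scale together with its detection p-value, per the file headers. Replicate labels in those headers differ from the ones in the OG2 and ESC sample titles. Columns were therefore matched to samples by cell type and line number, or array number for ESC. BeadStudio 3.2, RMA and lumi are named per the submitters' processing notes, without their roles. The series value table holds log2 values processed by the authors, with equal quantiles in all columns. Its base was inferred from the values, how its background was corrected is not stated, and it was used for 1 of the alternatives.

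Background correction and normalization were done by neqc of limma 3.58.1 (R 4.3.3; normexp from the detection p-values, offset 16, quantile, log2). Probes detected (p under 0.01) on at least 2 arrays were tested, 13034 of 25697. All 14 arrays entered 1 linear model with a mean for each of 5 groups (lmFit, eBayes), 9 contrasts were tested two-sided, and a Benjamini-Hochberg adjusted p under 0.05 over all tested probes was called. All adjusted p values come from limma. Where nothing says that samples came from separate cultures, p-values measure only the spread between them. The number of arrays limits precision.

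Symbols came from the platform annotation, which gave 23978 probes 1 symbol and left 1719 unlisted. All 25 member genes matched the RefSeq table of GRCm38.p6, and 0 symbols changed. All member genes are named, and at most the 3 members of a partner list with the largest change, at the probe with the highest mean. The members and lists were chosen with earlier results of these data known. The procedure was tested on simulated data. Alternatives covered background correction, scaling, filter, groups in the fit, line number as a block, weights per array, and each array left out in turn. A chip block could not be fitted because no column names a chip. Averaging the ESC arrays, leaving out both dim arrays and scaling by the median of tested probes were added after seeing the data.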

Additional observations from a re-analysis of the deposited data

Results flagged for a closer look

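For each tested Tex probe, the 6 GSC arrays and the 6 gPS arrays were searched for an array far from the others, where at least 1 array of the set detected the probe. Of 29 such sets, 0 held an array whose gap to its neighbour passed 0.625 of the range. Chance alone would mark a few.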

How the results depend on the processing

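The number of Tex probes called stayed within 1.5 times its value under all alternatives for 8 of the 9 comparisons. Where 0 were called, this means only that the number stayed at 0. In each comparison of GSC with gPS or ESC, 5 of the calls were probes detected on GSC arrays alone. Part of this stability was therefore set in advance. For gPS OG2 against ESC, where 1 was called, the number was 0 with the authors' series values, with all probes tested, with only the groups compared and with the ESC arrays averaged, and 5 with array weights, which called 1634 of all tested probes against 109 otherwise. The cause was not tested. Leaving out 1 array at a time gave 11 to 12 calls for gPS against GSC over both backgrounds, 6 to 9 in OG2, 7 to 9 in OG2-ROSA, 6 to 9 for GSC OG2 against ESC and 0 to 1 for gPS OG2 against ESC, the last being 0 without either ESC array, gPS OG2 line 3 or GSC OG2-ROSA line 3. Of 3978 recomputed values of single probes, 3899 kept their side of the threshold, 51 lost and 28 gained a call, and 0 called values changed sign. The least stable call was Tex19.2 in OG2-ROSA (adjusted p = 0.049), lost under 17 of 26 alternatives. Median scaling over the tested probes moved the median change of all probes from -0.04 to 0.09 between gPS and GSC, and the higher share of all calls from 47.6% to 54.0%. Deviations of same-numbered GSC and gPS lines from their group means correlated between -0.16 and 0.00. Such deviations also carry the noise of single arrays, so they cannot show whether a gPS line came from the GSC line of its number. With the line number as a replicate block the count was 11 over both backgrounds, 8 in OG2 and 8 in OG2-ROSA. Signals near the detection level limit the folds of Tex11, Tex13b, Tex101 and Tex16 to lower bounds.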
